A study of Homo sapiens with 10 samples.

Results

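The genes described here carry the signal of the B cell receptor from the membrane to the nucleus, and their messenger RNA was compared between bortezomib-resistant (BR) and PT cells of 2 mantle cell lymphoma lines. The set was chosen by symbol, with earlier results of these data known, and holds 42 genes of 19775 that had a probe set annotated to a single gene. Its members are kinases next to the receptor, adaptors, coreceptors, inhibitors, and genes of the phosphoinositide 3-kinase (PI3K), protein kinase C (PKC), VAV and RAC, RAS and NFAT branches. A value was found for 41 of them, and PIK3AP1 was not analysed here. Each gene was read from its brightest probe set, which is a group of short probes against a stretch of its transcript.

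HBL2 and JEKO are established lines of mantle cell lymphoma, a mature B cell cancer, and bortezomib is an inhibitor of the proteasome. The arrays were 6 of HBL2 (3 PT, 3 BR) and 4 of JEKO (2 PT, 2 BR), each of total RNA from cells in logarithmic growth. The BR cells are labelled as having a resistance induced by bortezomib, and PT, which the labels do not spell out, is taken as the parental line from knowledge of the study. The sources used here give neither the drug dose, its presence at harvest nor whether a BR line is a single clone. They also do not say that replicates were separate cultures, so a p-value here reflects the spread among these arrays alone, which may be technical. In RNA from a culture, fewer cells that express a gene and less RNA per cell cannot be told apart.

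When antigen or tonic signals cluster the receptor, SRC-family kinases such as LYN and BLK phosphorylate its CD79 chains and SYK docks on them. SYK then phosphorylates the scaffold BLNK, on which BTK activates the phospholipase PLCG2, and the products of that enzyme open calcium stores, which activates NFAT, and switch on PKC and the RASGRP exchange factors. The BCL10 and MALT1 complex links PKC to NF-kB, PI3K supplies the membrane lipid that recruits BTK and AKT, and phosphatases and inhibitory receptors such as PTPN6, INPP5D and CD72 damp the signal. Many mantle cell lymphomas depend on this pathway, which is why BTK and PI3K inhibitors are used against them.

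The stretches before the transcription starts of 4 members are shown first, because these genes carry the main patterns below: CD72 and INPP5D are inhibitors that fell in HBL2 BR cells, and the adaptors BLNK and LAX1 fell in HBL2 and rose in JEKO. Each is the 250 bases before the start on the gene's own strand, from RefSeq on GRCh38.p14, at chr9:35618414-35618663 (minus strand) for CD72, chr2:233060092-233060341 (plus strand) for INPP5D, chr10:96271570-96271819 (minus strand) for BLNK and chr1:203764933-203765182 (plus strand) for LAX1. Capitals mark matches, on either strand, to 5 short motifs of B cell and NFAT factors: the octamer ATTTGCAT, the ETS core AGGAAG, the EBF core CCCNNGGG, the E2A E-box CAGGTG and the NFAT core GGAAAA. The printed matches overlap in 0 cases.
CD72: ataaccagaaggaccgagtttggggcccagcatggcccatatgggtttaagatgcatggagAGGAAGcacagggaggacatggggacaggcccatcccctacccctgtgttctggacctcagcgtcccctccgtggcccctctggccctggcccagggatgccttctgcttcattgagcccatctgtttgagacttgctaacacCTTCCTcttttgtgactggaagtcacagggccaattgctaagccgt
INPP5D: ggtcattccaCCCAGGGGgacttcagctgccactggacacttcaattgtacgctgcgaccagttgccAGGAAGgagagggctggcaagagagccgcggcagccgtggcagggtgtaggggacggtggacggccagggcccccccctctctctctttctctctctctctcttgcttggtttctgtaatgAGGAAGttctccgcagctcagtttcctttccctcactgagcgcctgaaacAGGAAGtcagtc
BLNK: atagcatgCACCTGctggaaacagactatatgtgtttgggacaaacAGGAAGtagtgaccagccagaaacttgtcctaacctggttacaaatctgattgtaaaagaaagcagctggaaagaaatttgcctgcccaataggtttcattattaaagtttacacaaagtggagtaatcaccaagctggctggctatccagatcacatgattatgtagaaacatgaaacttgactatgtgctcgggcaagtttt
LAX1: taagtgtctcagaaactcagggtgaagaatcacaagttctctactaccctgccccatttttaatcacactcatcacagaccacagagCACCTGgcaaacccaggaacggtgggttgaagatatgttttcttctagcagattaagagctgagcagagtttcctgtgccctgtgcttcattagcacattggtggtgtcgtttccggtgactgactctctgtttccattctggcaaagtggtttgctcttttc

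CD72 held 2 ETS cores, the first bases of which lay 189 and 46 bases before the start, and INPP5D held 3, at 183, 62 and 12 bases, with an EBF core at 240 bases. BLNK held an ETS core and an E-box, and LAX1 an E-box alone. Start regions were found for 36 members, 62 regions in all, since some genes have several starts. The ETS core was in 53.2% of these regions against 28.7% of all 35116 regions of the same length, the EBF core in 29.0% against 17.1%, the E-box in 29.0% against 17.5%, the NFAT core in 21.0% against 21.2% and the octamer in 1.61% against 1.63%. The single octamer was that of PRKCB. These letter matches describe the regions and show no binding.

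The deposited values are scores between 0 and 4.99 that are the same set of numbers on every array, so a score is fixed by where a probe set ranks on its array. The scale looks logarithmic with an unstated base, and changes are given as differences in score units, never as folds. The array median was 0.73, and a gene was tested if it lay at or above it on at least 2 arrays. That kept 14529 genes and 40 members. CR2, the complement receptor that pairs with the antigen receptor, stayed below the filter with scores of 0.10 to 0.83. Of the 40, 36 lay at or above the median on all 10 arrays, and the others were BLK (7 arrays), LAX1 (8), PRKCD (9) and RASGRP3 (4). Tests are from 1 limma fit over all 14529 genes, with p-values adjusted over all of them, and a gene was called changed at an adjusted p under 0.05. Values after ± are standard deviations beside a mean and standard errors of the fit beside a change. The number of arrays limits the precision, and the standard error of a member's change was 0.055 to 0.11 in HBL2 and 0.068 to 0.14 in JEKO.

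The B cell markers MS4A1, CD79A, CD79B, PAX5, CD22 and CD74 lay above the array median on all 10 arrays, as did CCND1 and SOX11, which mark mantle cell lymphoma. CD5, the other marker of that lymphoma looked at, reached the median on 4 arrays, 1 of HBL2 PT and 3 of JEKO, and on none of the HBL2 BR arrays (0.65, 0.45 and 0.55). Of 8 T and NK cell markers, 6 failed the filter and the others, CD3E and CD4, were not called, and CD14 lay below the median on every array. The summed score of 7 myeloid markers moved in HBL2, from 5.48 to 6.54 in PT down to 3.11 to 3.55 in BR, with TYROBP called lower. LYZ was called lower too, but it passed the filter only through 2 HBL2 PT arrays, where it is high. ITGAM (3 arrays) and FCGR1A (2 arrays) also passed only through HBL2 PT arrays. Their changes of -0.39 and -0.36 are part of the fall of the sum and were not called. The summed myeloid score was 3.40 to 4.39 in JEKO PT and 4.23 to 4.55 in JEKO BR. Several members are also used by myeloid cells, among them SYK, LYN, PTPN6 and LAT2, and the part of these transcripts in the HBL2 result was not tested. Plasma cell markers moved as well: of 8, PRDM1, IRF4, XBP1, SDC1 and CD38 were called higher and JCHAIN lower in HBL2 BR, and their summed score was 12.8 to 13.2 in PT and 13.5 to 14.2 in BR (JEKO 11.7 to 12.0 and 12.5 to 12.6). The summed score of the B cell markers was 14.3 to 15.4 in HBL2 PT and 12.7 to 13.7 in HBL2 BR. Their part in the result was not tested either. A beta-actin control of RNA quality, the 5' score minus the 3' score, ran from -1.25 to -0.58 over the HBL2 PT arrays, -1.04 to -0.69 over HBL2 BR, -0.82 to -0.70 over JEKO PT and -1.01 to -0.76 over JEKO BR.

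In HBL2 BR cells the receptor signalling genes were mostly lower than in PT cells. Of the 40 tested members 20 fell and 1 rose, against 6.86% of all tested genes called lower and 4.91% called higher. Because the members were chosen with earlier results of these data known, such shares describe the set and are no independent test of it. The median change of the members was -0.22, beside -0.00099 over all genes, and 34 of the 40 had a negative sign. The 3 BR arrays lay entirely below the 3 PT arrays for 26 members and entirely above for 1, where this held for 14.5% and 12.8% of all genes. The falls covered kinases, adaptors, inhibitors and PKC. With no filter, 19 of 41 members fell and 1 rose, and without _x_at and _s_at probe sets, which can bind several transcripts, 10 of 33 fell and 0 rose.

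**Figure D1:**
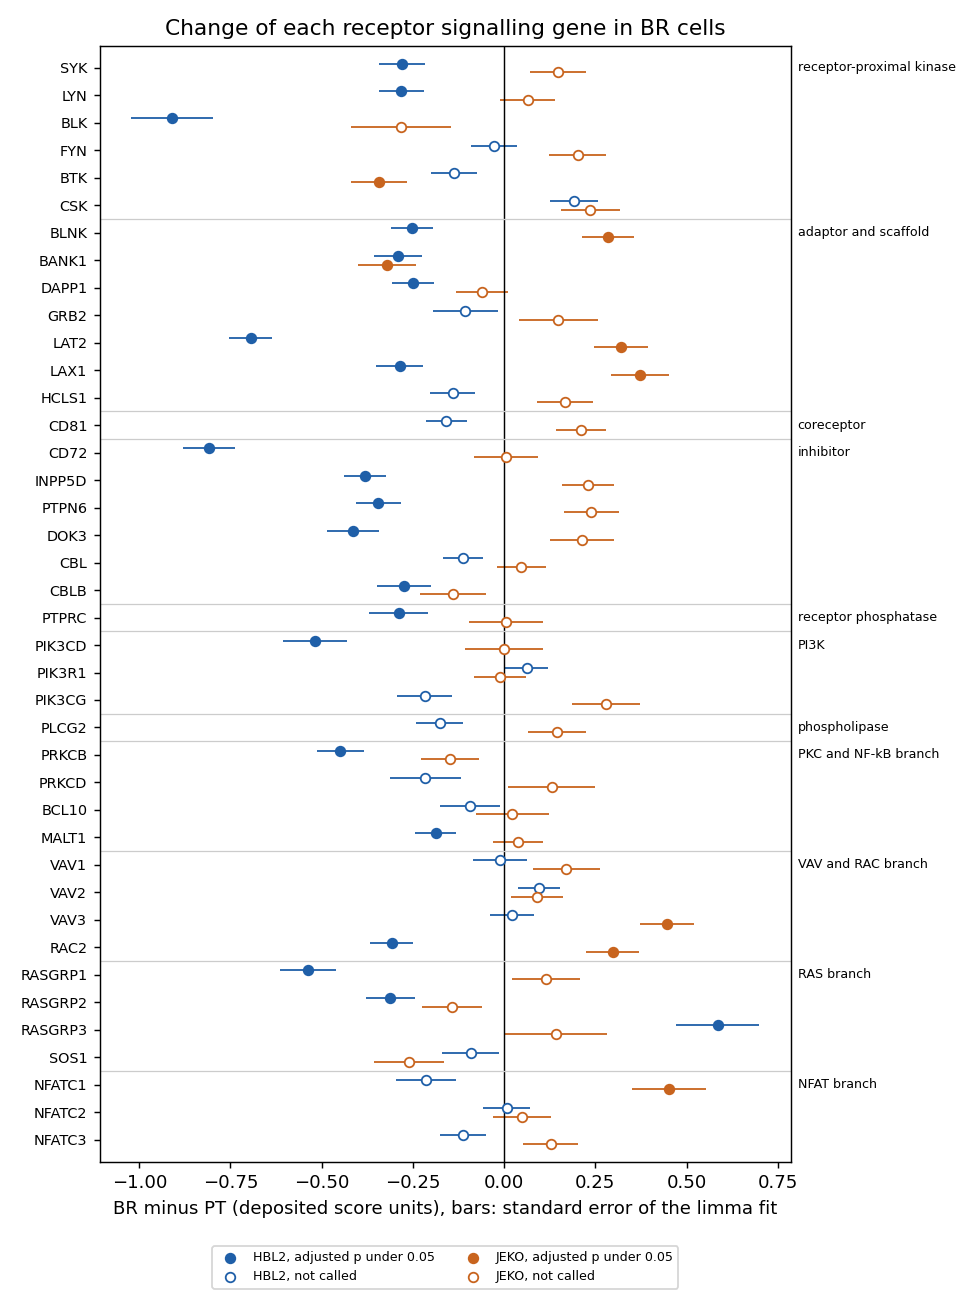
Change from PT to BR cells for the 40 tested members, in deposited score units, with HBL2 in blue and JEKO in orange. Points are limma estimates, bars their standard errors, and filled points were called; most HBL2 points lie left of 0 and most JEKO points right of it, and BLK at -0.91 and RASGRP3 at 0.59 are the HBL2 extremes.

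Among the kinases next to the receptor, BLK, SYK and LYN fell in HBL2. BLK, a SRC-family kinase of B cells, scored 1.37, 1.21 and 1.40 on the PT arrays and 0.47, 0.10 and 0.68 on the BR arrays, a change of -0.91 ± 0.11 (limma adjusted p = 3.7e-05). All 3 BR values of BLK are under the array median, and a dim second probe set of the gene changed by -0.17, so that the median over both gave a smaller fall of 0.54. SYK, which starts the cytoplasmic cascade, went from 2.19, 2.09 and 2.19 to 1.87, 1.84 and 1.93 (-0.28 ± 0.062, adjusted p = 0.0065). LYN, which both starts and restrains the signal, went from 2.19, 2.09 and 2.10 to 1.79, 1.80 and 1.95 (-0.28 ± 0.061, adjusted p = 0.0055). The BR arrays of these 3 kinases lay entirely below the PT arrays, as for 14.5% of all tested genes. SYK was no longer called when the median of its probe sets was taken (-0.12), nor LYN without _x_at and _s_at probe sets.

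BTK, the target of ibrutinib, was lower on every HBL2 BR array (1.83, 1.71 and 1.83) than on every PT array (1.97, 1.91 and 1.89), but its change of -0.14 ± 0.062 was not called (adjusted p = 0.19). FYN changed by -0.028 (adjusted p = 0.85). CSK, which holds SRC-family kinases inactive, changed by 0.19 (adjusted p = 0.070). Its PT arrays (2.38, 2.27 and 2.18) and BR arrays (2.37, 2.49 and 2.56) overlapped.

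The adaptors gave the second group of falls, with 5 of 7 tested members called lower, against 6.86% of all tested genes. LAT2, a membrane scaffold also known as NTAL, scored 1.99, 2.10 and 2.04 in PT and 1.31, 1.38 and 1.35 in BR, a fall by 0.69 ± 0.060 (adjusted p = 8.3e-07). The replicates of each group lie close together beside that gap, yet a dimmer LAT2 probe set, with means of 0.65 in PT and 0.82 in BR, changed by 0.17 (adjusted p = 0.32 when it stands for the gene), so the direction depends on the probe set. BLNK, the scaffold of BTK and PLCG2, fell by 0.25 ± 0.058, from 2.53, 2.43 and 2.53 to 2.18, 2.23 and 2.32 (adjusted p = 0.0083). LAX1, a membrane adaptor that restrains the signal, went from 0.94, 0.99 and 1.05 to 0.65, 0.72 and 0.76 (-0.29 ± 0.065, adjusted p = 0.0073).

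BANK1 and DAPP1 completed the adaptor falls. BANK1, a scaffold tied to calcium release, scored 2.05, 1.96 and 2.10 in PT and 1.85, 1.73 and 1.65 in BR (-0.29 ± 0.065, adjusted p = 0.0065). DAPP1, which binds PI3K lipids, went from 2.11, 2.14 and 2.16 to 1.82, 1.88 and 1.96 (-0.25 ± 0.059, adjusted p = 0.0092). In each of the 5 adaptors the BR arrays lay below the PT arrays without overlap, as for 14.5% of all tested genes. The calls of BLNK and DAPP1 were lost without HBL2 BR replicate 1, that of DAPP1 also without _x_at and _s_at probe sets (-0.076), and that of BANK1 when the 3 arrays with the lowest beta-actin value were left out. GRB2 (-0.11) and HCLS1 (-0.14), a substrate of SYK and LYN, were not called, with adjusted p of 0.53 and 0.18.

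Of the 6 members listed as inhibitors 5 were called lower, against 6.86% of all tested genes. CBL, a ubiquitin ligase, was not called (-0.11 ± 0.055, limma adjusted p = 0.24). CSK, which holds SRC-family kinases inactive, is listed with the kinases above and was not called lower. CD72, an inhibitory coreceptor that recruits PTPN6, had the largest of the inhibitor changes. It scored 1.92, 1.78 and 1.89 on PT arrays and 0.98, 0.97 and 1.22 on BR arrays (-0.81 ± 0.072, adjusted p = 1.1e-06), with no overlap. INPP5D, the lipid phosphatase that opposes PI3K, went from 2.10, 2.09 and 2.12 to 1.67, 1.69 and 1.82 (-0.38 ± 0.058, adjusted p = 3.0e-04). PTPN6, the phosphatase that CD72 and CD22 recruit, went from 2.28, 2.15 and 2.13 to 1.81, 1.81 and 1.91 (-0.35 ± 0.062, adjusted p = 0.0012).

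DOK3, an adaptor that brings in INPP5D, fell by 0.41 ± 0.072, from 2.66, 2.43 and 2.46 to 2.13, 2.0 and 2.17 (adjusted p = 9.5e-04). CBLB, a ubiquitin ligase, went from 1.59, 1.59 and 1.44 to 1.29, 1.29 and 1.21 (-0.27 ± 0.074, adjusted p = 0.022). For all 6 inhibitors the BR arrays lay entirely below the PT arrays, as for 14.5% of all tested genes. The call of CBLB was lost in 9 of 23 alternatives, among them leaving out any HBL2 array other than PT replicate 3, that of DOK3 was lost without _x_at and _s_at probe sets (-0.16), and that of INPP5D with the median over probe sets (-0.23). PTPRC, the receptor phosphatase CD45 that activates SRC-family kinases, changed by -0.29 ± 0.082 (adjusted p = 0.030), but its PT arrays (2.57, 2.88 and 2.97) overlapped its BR arrays (2.47, 2.58 and 2.49). Its call was lost in 9 alternatives, without HBL2 PT replicates 2 or 3 or BR replicates 1 or 3 among them.

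Of the PI3K members, PIK3CD, the catalytic subunit that idelalisib inhibits, fell from 2.03, 2.07 and 1.71 to 1.45, 1.44 and 1.37 (-0.52 ± 0.088, adjusted p = 7.6e-04). PT replicate 3 was the lowest PT array and still lay above all BR arrays. A second PIK3CD probe set changed by -0.16. The catalytic subunit gene PIK3CG changed by -0.22 ± 0.076 (adjusted p = 0.078), and the regulatory subunit gene PIK3R1 by 0.062 ± 0.059 (adjusted p = 0.59). PLCG2, the phospholipase, changed by -0.18 ± 0.064 (adjusted p = 0.095), with BR arrays of 2.31, 2.33 and 2.46 under PT arrays of 2.52, 2.48 and 2.62.

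PRKCB, the PKC of B cells that phosphorylates the partner of BCL10 and MALT1, went from 2.22, 2.27 and 2.41 to 1.76, 1.88 and 1.92 (-0.45 ± 0.064, adjusted p = 1.6e-04). Its other 4 tested probe sets were also lower, by 0.20 to 0.43. MALT1, the protease of that complex, fell by 0.19 ± 0.056, from 1.80, 1.79 and 1.87 to 1.63, 1.61 and 1.66 (limma adjusted p = 0.040). This call did not hold in 15 of 23 alternatives, including without any single array other than HBL2 PT replicate 1. BCL10 (-0.093) and PRKCD (-0.22) were not called, with adjusted p of 0.55 and 0.19.

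The RAS branch split among its exchange factors. RASGRP1 went from 1.40, 1.32 and 1.58 to 0.86, 0.84 and 0.99 (-0.54 ± 0.076, adjusted p = 1.5e-04), and RASGRP2, which acts mainly on RAP, from 2.09, 1.90 and 1.88 to 1.58, 1.63 and 1.73 (-0.31 ± 0.067, adjusted p = 0.0051). RASGRP3, which couples the receptor to RAS in B cells, went the other way, from 0.35, 0.18 and 0.47 to 0.87, 1.08 and 0.80 (0.59 ± 0.11, adjusted p = 0.0026). RASGRP3 passed the filter only through 4 BR arrays, so its rise is no independent support for a pattern, and it was not tested at the 75th percentile filter. Another RASGRP2 probe set was lower in BR too (-0.56), but the change was 0.0045 when _x_at and _s_at probe sets were left out. SOS1, an exchange factor that GRB2 carries, changed by -0.092 (adjusted p = 0.54).

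RAC2, a blood cell GTPase, fell in HBL2 from 2.93, 2.83 and 2.76 to 2.48, 2.52 and 2.59 (-0.31 ± 0.059, adjusted p = 0.0023). The VAV exchange factors that activate it did not pass: VAV1 changed by -0.011, VAV2 by 0.096 and VAV3 by 0.021, with adjusted p of 0.95, 0.36 and 0.88. Of the calcium-driven factors, NFATC1 changed by -0.21 ± 0.083 (adjusted p = 0.12), NFATC2 by 0.0072 and NFATC3 by -0.11. NFATC1 was lower on every HBL2 BR array (1.03, 1.02 and 1.05) than on any PT array (1.26, 1.25 and 1.22). CD81, a tetraspanin of the coreceptor complex, changed by -0.16 ± 0.056 (adjusted p = 0.082), also without overlap.

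**Figure D2:**
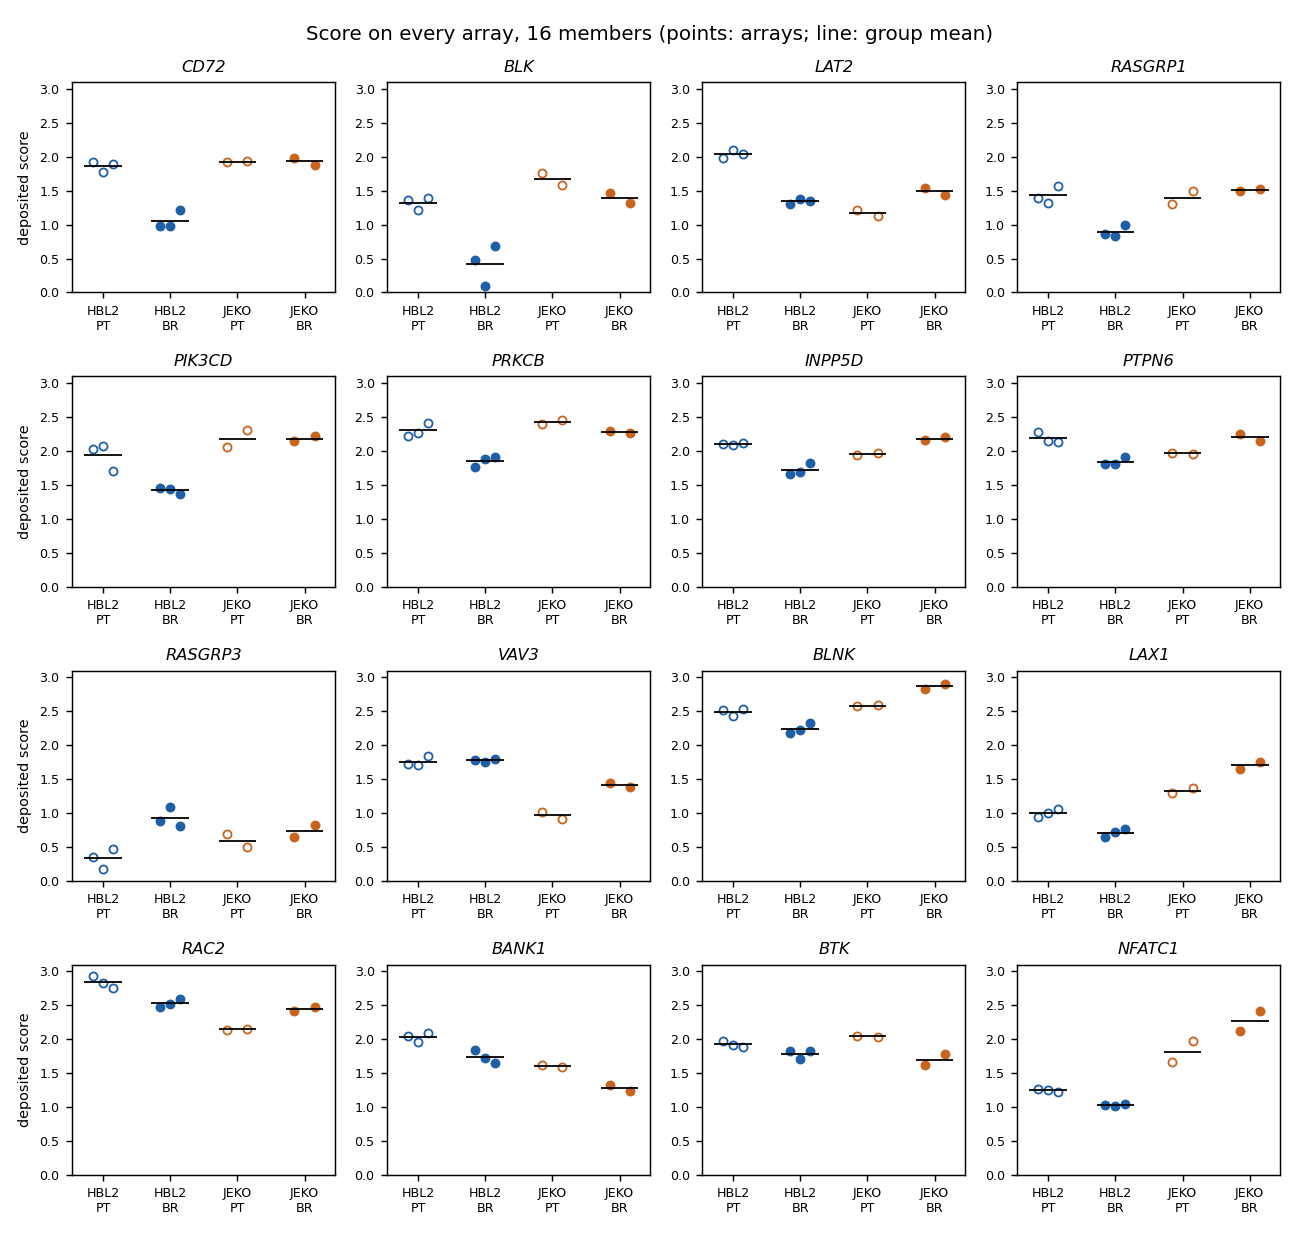
Deposited score on each array for 16 members, with open points for PT, filled points for BR, blue for HBL2 and orange for JEKO, and a line at the group mean. CD72 drops in HBL2 alone, BLNK, LAX1, LAT2 and RAC2 drop in HBL2 and rise in JEKO, and BANK1 drops in both lines.

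In JEKO BR cells fewer receptor signalling genes changed, and most of those rose. Of 40 tested members 6 were called higher and 2 lower, against 4.28% of all tested genes called (2.56% higher and 1.72% lower). The median change was 0.13, beside 0.012 over all genes, with 30 positive signs, and both BR arrays lay above both PT arrays for 21 members and below for 6, where 28.3% and 22.5% of all genes did. With 2 arrays in a group these calls rest on each array: without JEKO PT replicate 1 a single member was called, without PT replicate 2 there were 2, without BR replicate 1 there were 3, without BR replicate 2 there were 2, and without HBL2 BR replicate 2, which enters the shared spread, there were 5. VAV3 was the member that kept its call in every alternative run.

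VAV3, an exchange factor for RAC, rose from 1.02 and 0.91 to 1.45 and 1.38 (0.45 ± 0.074, adjusted p = 0.0026). Its other probe sets rose or stood higher as well, by 0.16 and 0.41. RAC2, on which VAV3 acts, went from 2.14 and 2.15 to 2.41 and 2.47 (0.30 ± 0.073, adjusted p = 0.030). VAV1 (0.17) and VAV2 (0.089) were not called, with adjusted p of 0.36 and 0.58. So 2 of the 4 genes of this branch were called higher, against 2.56% of all tested genes. The call of RAC2 was lost in 9 of 22 alternatives. Among them were leaving out any single JEKO array or HBL2 BR replicate 2, and taking the median over probe sets. A dimmer RAC2 probe set changed by 0.017 in JEKO and by -0.15 in HBL2.

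Adaptors supplied 3 of the other rises. LAX1 went from 1.29 and 1.37 to 1.64 and 1.76 (0.37 ± 0.080, adjusted p = 0.015), LAT2 from 1.21 and 1.13 to 1.55 and 1.44 (0.32 ± 0.073, adjusted p = 0.021) and BLNK from 2.57 and 2.59 to 2.83 and 2.91 (0.28 ± 0.071, adjusted p = 0.034). In all 3 the PT arrays lay close together and below both BR arrays, a separation that 28.3% of all tested genes showed. The calls were lost in 6, 7 and 9 of the alternatives run, among them leaving out JEKO PT replicate 1, PT replicate 2 or BR replicate 2 for each. LAT2 was also not called when the median of its probe sets was taken.

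NFATC1, the calcium-driven factor, rose from 1.66 and 1.98 to 2.12 and 2.42 (0.45 ± 0.10, adjusted p = 0.019). Its replicates were the most spread of the called members in JEKO PT (SD 0.22, n = 2), its other 4 probe sets moved by 0.028 to 0.28, and the call was lost without JEKO PT replicate 1 and without JEKO BR replicate 2. The falls were BTK and BANK1. BTK went from 2.05 and 2.04 to 1.62 and 1.78 (-0.34 ± 0.076, adjusted p = 0.018), and BANK1 from 1.62 and 1.59 to 1.33 and 1.24 (-0.32 ± 0.079, adjusted p = 0.031). The call of BTK was lost without JEKO PT replicate 1 or 2 or BR replicate 1, and that of BANK1 without any JEKO array.

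None of the 5 inhibitors that fell in HBL2 was called in JEKO. PTPN6 changed by 0.24 ± 0.075 (adjusted p = 0.090), INPP5D by 0.23 ± 0.071 (adjusted p = 0.083), DOK3 by 0.21 ± 0.088 (adjusted p = 0.21) CD72 by 0.0059 ± 0.088 (adjusted p = 0.98) and CBLB by -0.14 ± 0.090 (adjusted p = 0.47). The CBLB arrays overlapped, at 1.45 and 1.65 in JEKO PT and 1.52 and 1.30 in JEKO BR. CD72 was 1.92 and 1.93 in JEKO PT and 1.99 and 1.88 in JEKO BR. The 32 members not called in JEKO had changes between -0.28 and 0.28, and the lowest adjusted p among them was 0.083.

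The next comparison asked whether a member's change differed between the lines, as the HBL2 change minus the JEKO change, which share no arrays. It passed for 17 of 40 members, all with the more negative change in HBL2, against 8.71% of all tested genes (5.76% more negative and 2.95% more positive in HBL2). In 14 of the 17 the changes had opposite signs. That count takes bare signs and includes JEKO changes smaller than their error, such as 0.0059 ± 0.088 for CD72. Only 4 members were called both lower in HBL2 BR and higher in JEKO BR. LAT2 gave the largest difference (-1.02 ± 0.095, adjusted p = 7.8e-06), followed by CD72 (-0.81 ± 0.11, adjusted p = 2.8e-04). Then came NFATC1 (-0.67), LAX1 (-0.66), RASGRP1 (-0.65), DOK3 and BLK (-0.63 each), INPP5D and RAC2 (-0.61 each), PTPN6 (-0.58), BLNK (-0.54), PIK3CD (-0.52), PIK3CG (-0.497), SYK and VAV3 (-0.43 each), CD81 (-0.37) and LYN (-0.35).

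The JEKO arrays of these genes show where the lines parted. SYK was 2.41 and 2.60 in JEKO PT and 2.67 and 2.64 in JEKO BR, and LYN 1.89 and 1.84 against 1.91 and 1.94, both a little higher in BR without a call. The other 2 tested LYN probe sets changed by -0.12 and -0.078 in JEKO, and the other 3 of SYK by -0.10 to 0.12. BLK was 1.76 and 1.59 against 1.47 and 1.31, the same direction as in HBL2 with a smaller size. Among the inhibitors INPP5D was 1.94 and 1.97 against 2.17 and 2.20, PTPN6 1.97 and 1.96 against 2.26 and 2.15, and DOK3 2.17 and 2.24 against 2.34 and 2.49. In each case both BR arrays lay above both PT arrays, as they did for 28.3% of all tested genes. None of these JEKO changes was called.

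PIK3CD was 2.06 and 2.31 in JEKO PT and 2.15 and 2.22 in JEKO BR, and RASGRP1 1.30 and 1.49 against 1.5 and 1.52. PIK3CG, not called in either line alone, went from 2.0, 2.11 and 2.30 to 1.98, 1.93 and 1.85 in HBL2 and from 1.22 and 1.33 to 1.47 and 1.63 in JEKO. The other 2 tested PIK3CG probe sets changed by 0.038 and 0.060 in HBL2 and by 0.042 and 0.27 in JEKO. CD81, likewise not called alone, went from 2.79, 2.66 and 2.71 to 2.55, 2.54 and 2.60 in HBL2 and from 2.45 and 2.46 to 2.63 and 2.71 in JEKO. VAV3 was level in HBL2, at 1.72, 1.71 and 1.83 in PT and 1.78, 1.74 and 1.79 in BR.

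The calls of this difference for CD72, LAX1, RASGRP1, RAC2, PTPN6 and BLNK held in every alternative in which the gene was tested. The probe set rules could say little about them. All but RAC2 have 1 probe set, so a median over probe sets leaves their values unchanged. CD72, RAC2, PTPN6 and BLNK were not tested without _x_at and _s_at probe sets. Probe set rules ended others. That of LAT2 turned to 0.081 (limma adjusted p = 0.83) without _x_at and _s_at probe sets. Those of NFATC1 (-0.054), DOK3 (-0.41), INPP5D (-0.33) and LYN were lost in that fit. The median of a gene's probe sets ended those of NFATC1 (-0.082), PIK3CG (-0.21), SYK (-0.20), INPP5D (-0.40), VAV3, BLK, LYN and PIK3CD. Single arrays ended others: JEKO PT replicate 1 or BR replicate 1 for SYK, JEKO PT replicate 1 or BR replicate 2 for PIK3CG, JEKO PT replicate 2 or BR replicate 1 for VAV3, and JEKO PT replicate 1, PT replicate 2 or BR replicate 2 for CD81. PIK3CD lost its call in 8 of 22 alternatives, with HBL2 PT replicate 2, HBL2 BR replicate 3, JEKO PT replicate 1 or either JEKO BR array left out among them. BLK lost its call in 12, without any JEKO array or without HBL2 PT replicate 1, PT replicate 3 or BR replicate 1, and LYN in 11, without any JEKO array or without HBL2 PT replicate 1, BR replicate 1 or BR replicate 2. Leaving out PT replicate 1 or either BR array of JEKO brought the count to 12. BLNK, LAT2, LAX1 and RAC2 were called in opposite directions in the 2 lines, lower in HBL2 BR and higher in JEKO BR. That held for 0.475% of all genes, and the JEKO call of each of these members was lost in some alternatives. The reverse, higher in HBL2 BR and lower in JEKO BR, was called for 0 members and 0.124% of all genes. BANK1 was the member called lower in both (0.248% of all genes), 0 were called higher in both (0.379%), and the BANK1 changes did not differ beyond their error (0.030 ± 0.10, adjusted p = 0.91).

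PT cells of the 2 lines were compared because they set the level from which resistance began. Of 40 members 22 differed, 18 higher and 4 lower in HBL2 PT, against 23.1% of all tested genes (13.9% higher and 9.25% lower). LAT2 (0.87 ± 0.067, adjusted p = 1.5e-07), PIK3CG (0.86 ± 0.085, adjusted p = 2.0e-06), VAV3 (0.79 ± 0.067, adjusted p = 4.5e-07) and RAC2 (0.69 ± 0.066, adjusted p = 1.5e-06) stood higher in HBL2. SYK (-0.35), LAX1 (-0.33), RASGRP2 (-0.41) and NFATC1 (-0.57) stood lower there. Without _x_at and _s_at probe sets the differences of LAT2 (-0.15) and RASGRP2 (0.31) took the opposite sign. Those of NFATC1 (0.041), DOK3 (-0.0037) and FYN (-0.037) did too, but at sizes so small that they read as lost and not as reversed.

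Because this comparison shares its PT arrays with the BR changes, the 2 are set side by side only as group means. The LAT2 mean was 2.04 in HBL2 PT, 1.35 in HBL2 BR, 1.17 in JEKO PT and 1.49 in JEKO BR, so that the order of the lines turned. RAC2 stood 0.69 apart in PT and 0.088 apart in BR, while CD72 stood 0.063 apart in PT and 0.88 apart in BR. NFATC1 (0.57 and 1.24 apart), LAX1 (0.33 and 0.99) and BLK (0.35 and 0.97) were lower in HBL2 throughout and drew further apart. The HBL2 mean lay above the JEKO mean for 25 members in PT cells and for 17 in BR cells. The gap was smaller in BR than in PT for 22 of 40, with a median size of 0.26 in PT and 0.17 in BR. The same figures were not taken over all tested genes, so nothing particular to the members can be read from them.

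**Figure D3:**
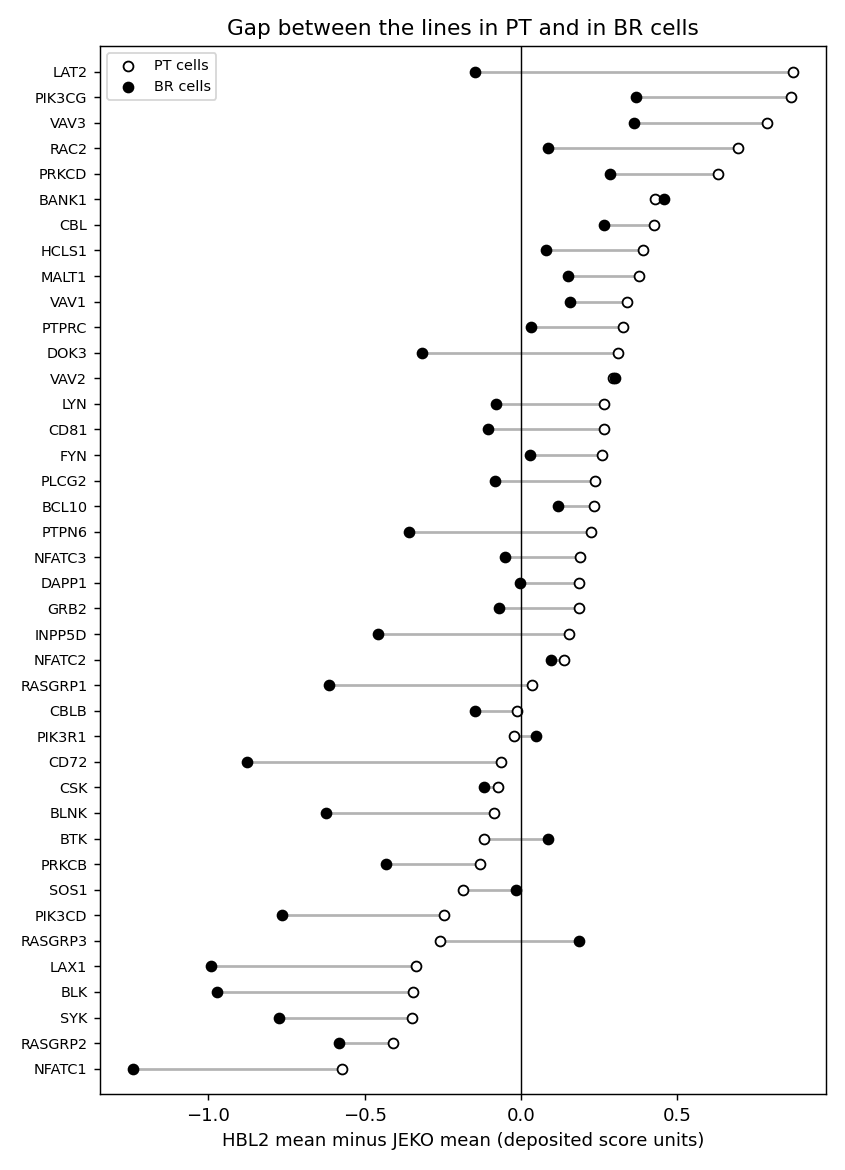
HBL2 mean minus JEKO mean for the 40 tested members, in deposited score units, with open points for PT and filled points for BR cells. The LAT2 gap turns from 0.87 to -0.15 and that of NFATC1 widens from -0.57 to -1.24; most filled points lie left of their open points.

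Since a gene can have several probe sets, the others were set beside the one used. In HBL2, 15 of the 21 called members had at least 1 other tested probe set, 30 in all, and 28 of these changed with the same sign, while 7 were called in a limma fit over probe sets. PRKCB had the most, with 3 of its other 4 called. In JEKO 5 called members had 10 others, of which 10 had the same sign and 2 were called. LAT2 and RASGRP2 held the 2 HBL2 probe sets of opposite sign. CD72, PTPN6, RASGRP1, BLNK and LAX1 have a single probe set each.

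**Figure D4:**
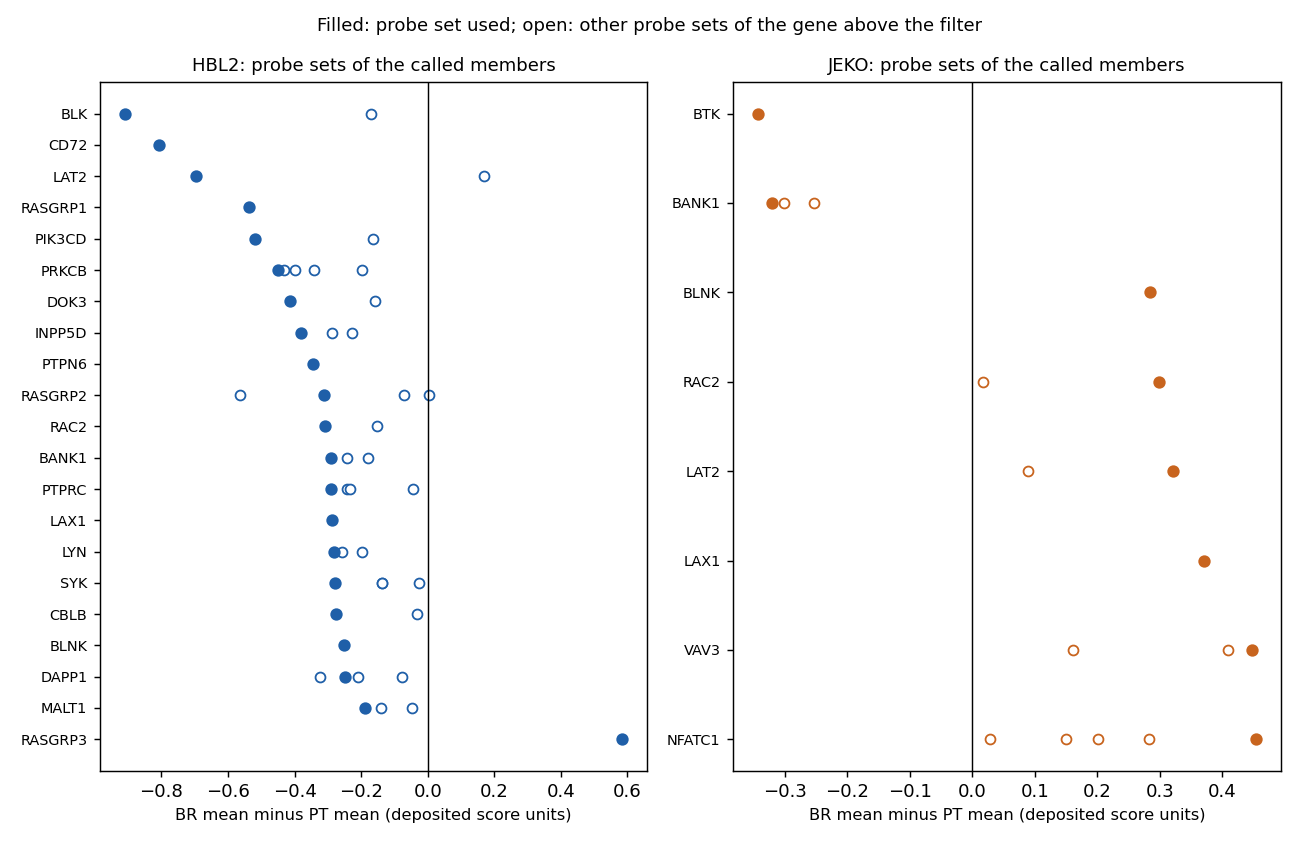
BR mean minus PT mean for every tested probe set of the members called in HBL2 (left, blue) and JEKO (right, orange), in deposited score units, with filled points for the probe set used. Other probe sets mostly share the sign with smaller sizes; the open LAT2 point lies at 0.17 in HBL2.

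A list of 121 other genes of the receptor pathway, also chosen with earlier results of these data known, gave the surroundings of the members. Of the 121, 98 were tested and 20 were not analysed here. In HBL2 BR, 21 fell and 3 rose, against 6.86% of all tested genes called lower and 4.91% called higher. The median change of the list in HBL2 was -0.079, beside -0.00099 over all genes. In JEKO BR, 9 rose and 3 fell, against 2.56% of all tested genes called higher and 1.72% called lower. The JEKO median was 0.063, beside 0.012 over all genes. With no filter, 21 of 101 fell and 3 rose in HBL2, and 5 rose and 2 fell in JEKO. The receptor chains CD79A and CD79B fell in HBL2 by 0.35 ± 0.061 and 0.25 ± 0.063 (adjusted p = 9.8e-04 and 0.017), and changed in JEKO by -0.092 and -0.13 (adjusted p = 0.59 and 0.41). Inhibitory receptors gave 6 falls in 13, with FCGR2B, the inhibitory Fc receptor that brings in INPP5D, going from 2.04, 2.09 and 2.12 to 0.68, 0.84 and 1.22. The other falls were LILRB1 (-0.596), BTLA (-0.52), SIGLEC10 (-0.49), PECAM1 (-0.47) and LAIR1 (-0.397), and FCRL5 rose by 0.26. BTLA passed the filter only through the 3 HBL2 PT arrays (0.74, 0.75 and 0.82), where it is high, so its fall is no support for the count. CD22, a brake on the receptor, changed by -0.16 in HBL2 (adjusted p = 0.23) and rose by 0.35 in JEKO (adjusted p = 0.042).

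Adaptors and phosphatases outside the member list also fell in HBL2. PAG1, which anchors CSK near SRC-family kinases, scored 2.09, 2.04 and 2.09 in PT and 1.07, 0.94 and 1.15 in BR (-1.02 ± 0.065, adjusted p = 3.1e-08). SLA (-0.86), SH3KBP1 (-0.31), SKAP2 (-0.25) and NCK2 (-0.22) fell and SKAP1 rose (0.29). PTPN22, a partner of CSK, fell by 0.74 in HBL2 and rose by 0.30 in JEKO (adjusted p = 0.048), and PTPN12 (-0.34) and SOS2 (-0.23) fell in HBL2.

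Genes that receptor signals switch on within hours fell in 5 of 8 cases in HBL2, where 6.86% of all tested genes fell: CCL4 (-0.84), EGR3 (-0.53), NR4A1 (-0.495), EGR1 (-0.43) and CD83 (-0.42). CD69, MYC and DUSP2, of the same list, changed by -0.054, 0.19 and -0.0048 (adjusted p = 0.74, 0.076 and 0.98). In JEKO, CCL4 rose from 0.86 and 0.96 to 1.31 and 1.35 (0.43 ± 0.097, adjusted p = 0.021), and the other 7 were not called. These genes respond to other signals too, and which one moved them was not tested. NFKBIA, the NF-kB inhibitor and target, rose in both lines, by 0.36 in HBL2 and 0.30 in JEKO. JEKO BR also had rises of FCRL5 (0.39) and of the kinase genes LCK, from 1.20 and 1.06 to 1.99 and 2.05, ZAP70 (0.45) and YES1 (0.71), and of the adaptor SLA2 (0.51), and falls of PECAM1 (-0.44), FCRL2 (-0.37) and GAB2 (-0.503). YES1 passed the filter only through the 2 JEKO BR arrays (1.23 and 1.28), so its rise supports nothing either. Without single JEKO arrays this list had 2 or 3 calls in JEKO, and 7 without HBL2 BR replicate 1 or 2.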

How the data were processed

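The values are a deposited table of scores for 54675 probe sets on 10 Affymetrix arrays; the submitters' processing notes name MAS5 and no version, and the sources used here do not give what followed. Sorted, the deposited scores are the same on every array, so a common shift of most genes would be invisible.

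Of the probe sets, 41091 carried 1 gene symbol in the annotation of the platform, 1801 more than 1, and 11721 none listed; 62 were controls. Gene numbers of 41037 were found in RefSeq, and 0 symbols changed. Only probe sets with 1 symbol were used. Those at or above the 50th percentile of their array on at least 2 arrays were kept, and the brightest by mean over all arrays stood for its gene. Groups came from the sample titles. The members, the list of other pathway genes and the motifs were chosen with earlier results of these data known; every called member and pathway gene is named, as are CD79A, CD79B, CD22 and FCGR2B in any case. The promoters printed were chosen after the values were seen.

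The model was fitted by limma 3.58.1 in R 4.3.3 (4 group means, intensity trend, 6 residual degrees of freedom, prior degrees of freedom 9.89), two-sided, with Benjamini-Hochberg adjustment over all 14529 genes. The fit was run on simulated data with independent normal noise and changes placed in HBL2 BR alone. Such data lack the fixed ranks of the scores, so this checks the code and gives no support to the calls. Alternatives were other filters, variance models, scales and probe set rules, each line alone, a replicate block, a beta-actin covariate and leaving out each array; leaving out the 3 arrays of lowest beta-actin value together was added after seeing the data. 0 other columns of values were left aside.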

Additional observations from a re-analysis of the deposited data

Results flagged for a closer look

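For 17 receptor signalling genes the change from PT to BR differed between HBL2 and JEKO by the limma test of the difference itself (HBL2 change minus JEKO change, adjusted p under 0.05), among the 40 tested. Adaptors were LAT2 (-1.02), LAX1 (-0.66) and BLNK (-0.54). Inhibitors were CD72 (-0.81), DOK3 (-0.63), INPP5D (-0.61) and PTPN6 (-0.58). Kinases next to the receptor were BLK (-0.63), SYK (-0.43) and LYN (-0.35), and the coreceptor was CD81 (-0.37). Further along came PIK3CD (-0.52) and PIK3CG (-0.497), RASGRP1 (-0.65), RAC2 (-0.61), VAV3 (-0.43) and NFATC1 (-0.67). The sign was negative in each. Groups of 2 and 3 arrays are too small for a test of single outlying arrays.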

How the results depend on the processing

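In HBL2, 8 of 21 member calls held in all alternatives run (BLK, CD72, LAX1, PIK3CD, PRKCB, PTPN6, RASGRP1 and RASGRP3), 11 were lost in at least 1, and those of LAT2 (0.17) and RASGRP2 (0.0045) took the opposite sign without _x_at or _s_at probe sets. Of the 8, CD72, PTPN6 and RASGRP3 were not tested without these probe sets. CD72, LAX1, PTPN6 and RASGRP1 have 1 probe set each, so a median over probe sets leaves their values unchanged. In JEKO 1 of 8 held. Without _x_at or _s_at probe sets, which left 33 members, the member counts were 10 in HBL2 (21 in the main fit), 3 in JEKO (8), 8 for the difference of the changes (17) and 12 between the PT lines (22), and 7 other pathway genes (12) were called in JEKO. The sign then turned for LAT2 in the difference (0.081) and, between the PT lines, for LAT2 (-0.15), DOK3 (-0.0037), FYN (-0.037), NFATC1 (0.041) and RASGRP2 (0.31, or 0.29 with the median over probe sets, adjusted p = 0.019). That median gave 10 differences of the changes. Without an intensity trend 4 members and 5 other genes were called in JEKO, with normal scores 5 other genes, and with no filter 7. Leaving out together the 3 arrays with the lowest beta-actin value gave 2 members and 2 other genes in JEKO and 11 differences. Leaving out each array gave 17 to 22 members in HBL2, 1 to 9 in JEKO, 12 to 18 differences, 15 to 24 between the PT lines, and 18 to 26 and 2 to 16 other genes in HBL2 and JEKO. The cause of these shifts was not tested.

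Whether replicate numbers pair the arrays could not be settled. Deviations from the group means of same-numbered PT and BR arrays correlated at 0.017, 0.14 and 0.0075 in HBL2. Those of differently numbered HBL2 arrays ran from -0.20 to 0.15. With 2 arrays in a group, both JEKO pairs give the same value by construction, here 0.078. With a replicate block 21 members were called in HBL2, 7 in JEKO and 18 in the difference; MALT1 lost its HBL2 call and RAC2 its JEKO call.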
